A study of Drosophila melanogaster with 8 samples.

Results

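The odorant binding protein (Obp) genes of Drosophila melanogaster were taken as every gene whose FlyBase symbol begins with Obp followed by a digit. There were 51 of them among 14292 genes, with 71 transcripts, and all 51 were present in the deposited table. A gene was called detected in a library at 3 or more estimated counts. By that rule 15 genes were detected in at least 1 library, 14 lay above 0 but below 3 counts in every library, and 22 were at 0 everywhere. In the 6 libraries of eyes, glands and heads, 14 of the 51 Obp genes reached 3 rounded counts, against 4616 of all 14292 genes. The detected gene with the lowest maximum was Obp83b, at 3 counts, and the undetected genes with the highest maximum were Obp50a, Obp56f and Obp57a, at 2 counts each. The symbol rule leaves out lush, a well studied member of the family, which had 1 count in female eyes, 1 in male eyes and 0 elsewhere.

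Odorant binding proteins are small secreted proteins held together by disulphide bridges. In the antenna and taste bristles, support cells release them into the lymph that bathes the sensory neurons, where they bind hydrophobic odorants and tastants. Several members are also known outside the sense organs, in the fat body, in glia and in seminal fluid.

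All flies were wild type, strain Oregon R, reared at 25 °C. The libraries came from female and male eyes, female and male salivary glands, female and male heads, ovaries and testes, with 1 library of each kind. The labels give an age of 5 to 7 days after hatching. How salivary glands and ovaries were dissected, and whether the gland donors were larvae or adults, the sources used here do not say. Eyes were picked off frozen heads with tweezers, and photoreceptor markers were present in eye and head libraries alike. Long complementary DNA from total RNA had been amplified for the ends of transcripts of quick-to-court (qtc), a courtship gene, by RACE (rapid amplification of cDNA ends), so Obp reads are the background of an enriched library. In such bulk samples, fewer cells of a type and less RNA per cell cannot be told apart. With 1 library per group, no difference between 2 libraries has a replicate check.

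The libraries held 88471 to 152222 estimated counts, so 3 counts, the limit that a count of 0 allows, stood for 19.7 to 33.9 counts per 1000000 (CPM). Intervals are at 95% and cover counting error only, since amplified reads that carry no molecular tag do not each stand for a molecule of their own. The labels were set against cell type markers. Photoreceptor markers took 4.62% of the counts of female and 17.3% of male eyes, and 7.97% of the counts of female and 8.46% of male heads. All 7 salivary glue and gland markers were detected in both gland libraries (2.37% of female and 1.97% of male glands). Glue proteins are known as products of the late larval gland. Eggshell markers took 15.8% of ovaries, and 7 of 8 spermatogenesis markers were detected in testes. Some libraries also held markers of other tissues. Spermatogenesis markers took 0.344% of female heads, nearly all from Mst98Ca with 458 counts, against 0.321% of testes. Female eyes held 8.29% eggshell and 0.457% gut marker counts, with all 7 gut markers and 3 of 6 eggshell markers detected. Nearly all eggshell counts were from Cp15, with 11807 counts in female eyes and 23566 in ovaries. Fat body markers took 12.8% of female and 13.3% of male glands, nearly all of it Lsp2, a serum storage protein of the larval fat body. Male eyes held 1378 counts of Lsp2 and 6 of 7 salivary gland markers at 3 or more counts, 0.049% of that library. Muscle markers, in heads nearly all wupA, took 0.624% of female and 0.444% of male heads. They took 0.0279% of female and 0.0731% of male eyes. Neuron markers took 0.0554% of female and 0.0786% of male heads, against 0.0111% of female and 0.0202% of male eyes.

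Obp genes together took 0.0504% of counts in female eyes (Wilson interval 0.0398% to 0.0631%) and 0.146% in male eyes (0.126% to 0.169%). They took 0.783% in female salivary glands (0.74% to 0.829%) and 0.655% in male salivary glands (0.613% to 0.7%). In heads they took 0.0473% in females (0.0368% to 0.0603%) and 0.0564% in males (0.0448% to 0.0702%). The glands were therefore the libraries richest in Obp reads, and a single gene supplied nearly all of them. The ovaries held 3 Obp counts in all, 0.00198% of the library, and the testes held 0.0311% (0.0219% to 0.0457%).

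At the minimum of 3 counts, most detected genes were found in eyes. Female eyes and male eyes each had 10 detected genes, female salivary glands 2, male salivary glands 3, female heads 6, male heads 6, ovaries 0 and testes 3. Of all 14292 genes, 5138 were above 0 counts in female eyes, 4526 in male eyes, 3674 in female glands and 3833 in male glands. In heads 5004 were above 0 in females and 5061 in males, with 4464 in ovaries and 4744 in testes. The share of all genes at 3 or more counts was not taken per library, so the Obp numbers are a description. The number of detected Obp genes depended on the minimum. At 10 counts it was 1 in female eyes and 8 in male eyes, 2 in each gland library, 2 in female heads, 3 in male heads and 0 in both gonads. Female eyes then lay below glands and heads. Obp99b and Obp99c were each detected in 6 libraries, while Obp51a, Obp56e, Obp83b, Obp83ef and Obp99a were detected in 1 library each.

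**Figure D1:**
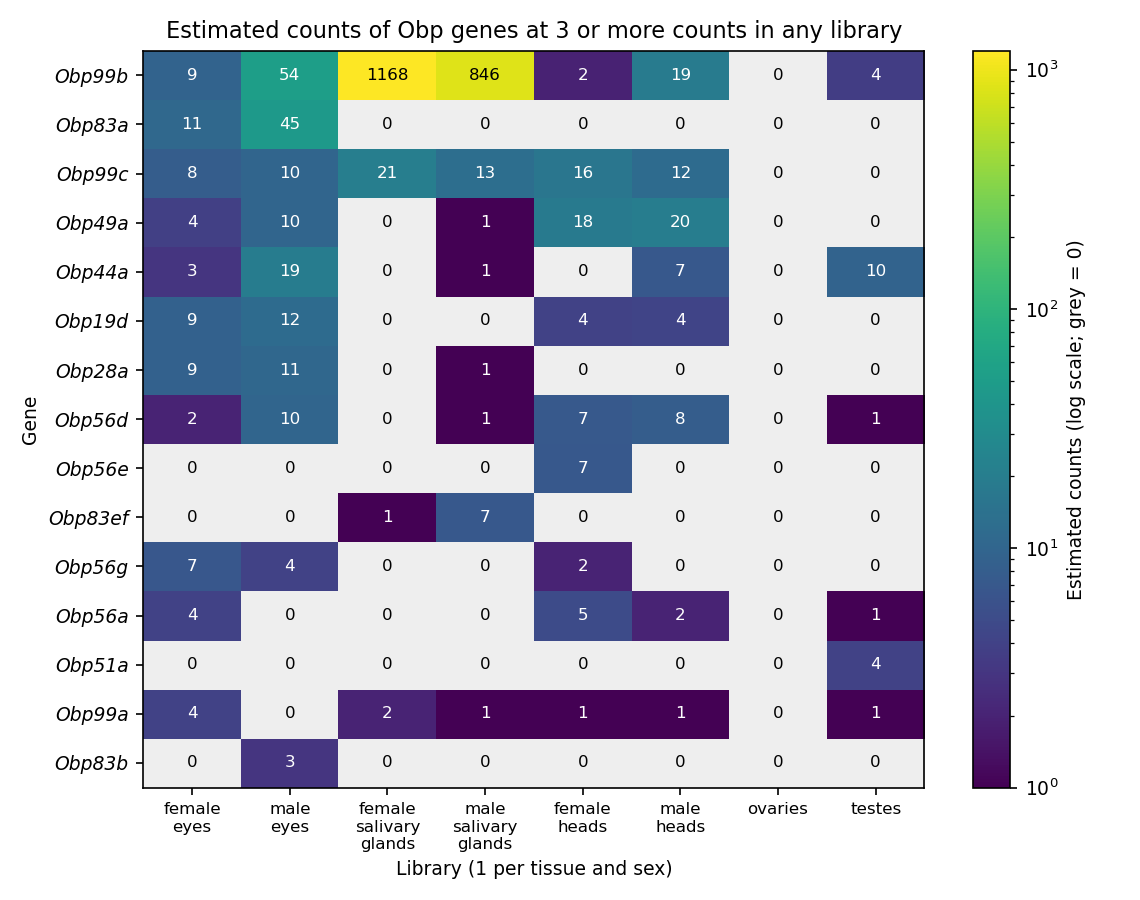
Estimated counts of the 15 detected Obp genes (rows) in each of the 8 libraries (columns), rounded for display and coloured on a log scale, with grey for 0. Obp99b stands out in both salivary gland libraries, Obp83a is above 0 in the 2 eye libraries only, and the ovaries are at 0 for all 15 genes.

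Obp99b was the most abundant member of the family. RefSeq also lists it as tsx, and it is known from fat cells of the adult head, where its RNA is regulated by the sex determination pathway. Its level was 7675 CPM in female salivary glands (exact Poisson interval 7240 to 8130) and 6363 CPM in male salivary glands (5940 to 6800), from 1168 counts in females and 846 in males. Among all genes it ranked 15 in the female and 18 in the male glands. In eyes its level was 65.9 CPM in females (28.6 to 119) and 426 CPM in males (322 to 559), and in heads 14.8 CPM in females (1.81 to 54) and 141 CPM in males (84.4 to 219). It was at 0 in ovaries, which allows up to 19.8 CPM, and at 41.4 CPM in testes (12.3 to 116). Both gland libraries thus lay above all other libraries, and each male eye or head library lay above its female counterpart with no overlap of the counting intervals.

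Obp99b accounted for 98% of Obp counts in female glands and 97.1% in male glands. Its share of Obp counts in eyes was 13.1% for females and 29.2% for males, and in heads 3.14% for females and 25% for males. On the length-corrected TPM scale it was the highest Obp gene of both gland libraries (16540 TPM in female and 13960 TPM in male glands). It was also the highest in male eyes (1278 TPM), in male heads (397 TPM) and, narrowly, in female eyes (150 TPM, against 146 TPM for Obp56g). The other Obp genes together were at 158 CPM in female glands (101 to 235) and 188 CPM in male glands (122 to 277). In eyes they were at 438 CPM in females (337 to 561) and 1034 CPM in males (862 to 1225), and in heads at 458 CPM in females (349 to 586) and 423 CPM in males (319 to 545). Without Obp99b, the glands therefore ranked below eyes and heads, and male eyes stood above the other libraries.

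**Figure D2:**
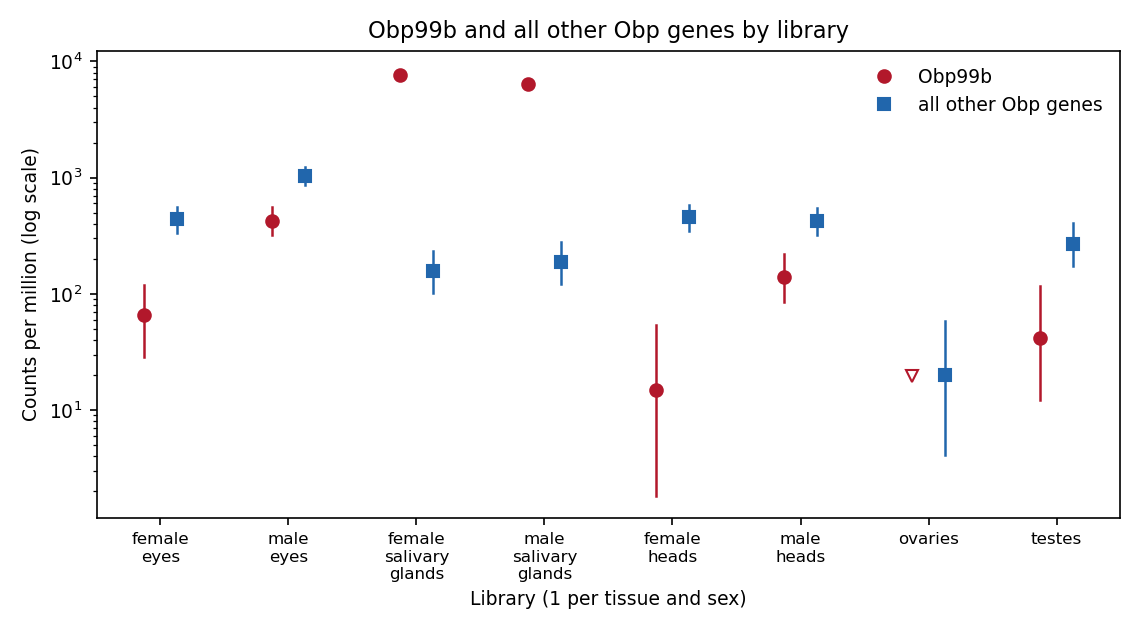
CPM (log scale) of Obp99b (red circles) and of all other Obp genes summed (blue squares) in the 8 libraries, with exact 95% Poisson intervals that cover counting error only; an open triangle marks the limit of 3 counts where the count was 0. Obp99b exceeds the rest of the family in the 2 gland libraries only, at 7675 CPM in females and 6363 CPM in males.

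Genes of larval storage and glue proteins were high in the same libraries as Obp99b. Lsp2 took 12.2% of female and 12.9% of male glands, and Sgs5, a glue protein gene, took 1.12% of female and 1.02% of male glands. Lsp1beta, a further larval serum protein gene that was named after its values were seen, took 4.68% of female and 3.74% of male glands. In male eyes the CPM of Obp99b was 6.69% of that in male glands, while the CPM of Lsp2 was 8.49%, of Sgs5 1.45% and of Lsp1beta 0.557% of the male gland level. In female eyes the corresponding shares of the female gland level were 0.859% for Obp99b, 0.179% for Lsp2, 0.186% for Sgs5 and 0.0711% for Lsp1beta. In male heads the shares of the male gland level were 2.21% for Obp99b, 0.669% for Lsp2 and 0.811% for Lsp1beta, and Sgs5 was at 0. In female heads the shares of the female gland level were 0.193% for Obp99b, 0.583% for Lsp2, 0.15% for Sgs5 and 0.121% for Lsp1beta. Outside the glands, Obp99b, Lsp2 and Sgs5 were thus highest in male eyes, and Lsp1beta was highest in male heads. The part of fat body and glue gland RNA in the Obp99b values was not tested.

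**Figure D3:**
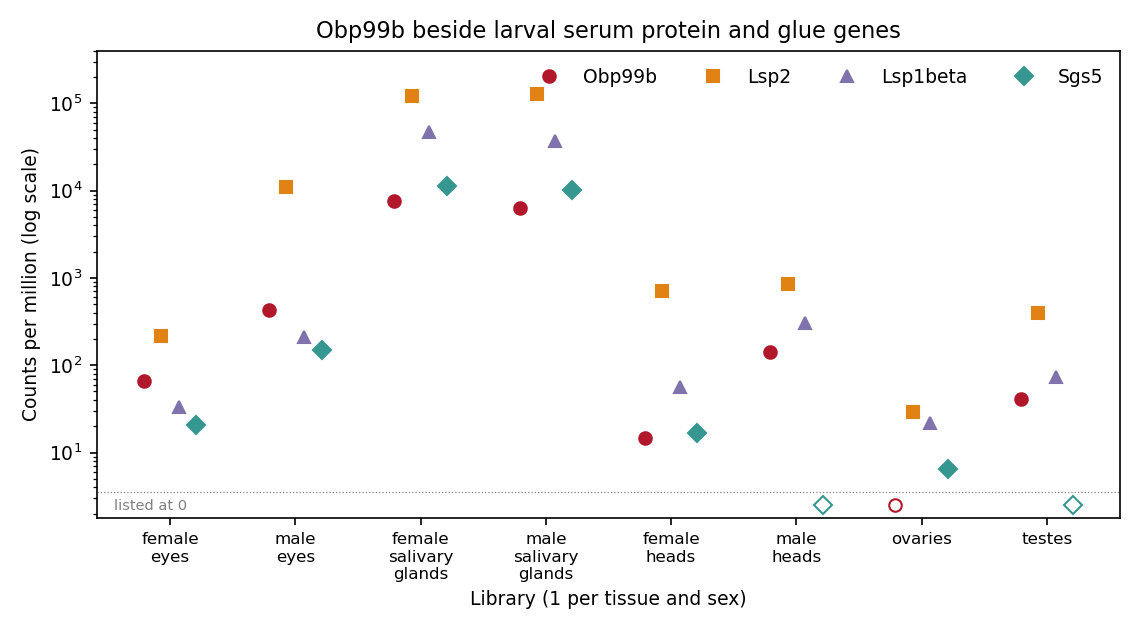
CPM (log scale) of Obp99b, of the larval serum protein genes Lsp2 and Lsp1beta and of the glue gene Sgs5 in the 8 libraries, 1 point per library and gene; open symbols below the dotted line are listed at 0. All 4 genes are highest in the 2 salivary gland libraries. Lsp2 lies well above its female eye level in male eyes, at 1.09% against 0.0219% of the counts of a library.

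The antennal members were found mainly in the eye libraries. Obp83a and Obp83b, neighbouring genes also called OS-F and OS-E, are made by support cells of antennal hairs. Obp83a was at 76.6 CPM in female eyes (38.2 to 137) and 358 CPM in male eyes (261 to 478), from 11 and 45.1 counts. It was at 0 in both gland, both head and both gonad libraries. Obp83b had 3 counts in male eyes and 0 in the other 7 libraries. Both genes were thus seen in eye libraries alone, and the 3-count limits for Obp83a in heads were 22.4 CPM in females and 22.1 CPM in males.

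Obp28a, one of the most abundant proteins of the antennal lymph, had 8.99 counts in female eyes and 10.8 in male eyes, or 62.6 CPM (28.6 to 119) and 85.4 CPM (43.6 to 156). It had 0 counts in female glands, 1 in male glands and 0 in both head and both gonad libraries. Obp56d, known from antenna and mouthparts, had 2 counts in female eyes, 10 in male eyes, 0 in female glands, 1 in male glands, 7.22 in female heads, 8 in male heads, 0 in ovaries and 1 in testes. It was the only member of the antennal list detected in heads. Obp99a, also an antennal protein, had 4 counts in female eyes, 0 in male eyes and 0 to 2.02 counts in the other 6 libraries.

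Of the 10 antennal members listed (Obp19a, Obp28a, Obp56d, Obp59a, Obp69a, Obp83a, Obp83b, Obp84a, Obp99a and lush), 5 were detected in any library. Their summed level was 202 CPM in female eyes, 579 CPM in male eyes, 13.3 CPM in female glands, 22.6 CPM in male glands, 61.5 CPM in female heads, 66.4 CPM in male heads, 0 in ovaries and 22.6 CPM in testes. Antennal support cell markers (a5, a10, Os-C, Est-6 and lush, the last also in the antennal list) summed to 8 counts in female eyes, 18 in male eyes, 0 in both gland libraries, 5 in female heads, 2 in male heads, 0 in ovaries and 20.1 in testes. The testis counts were all Est-6, an esterase of the male reproductive tract as well as of the antenna. Olfactory neuron markers were at or near 0. Of 10 such markers only Snmp1 was detected, with 3.02 counts in male eyes, and Orco, the shared co-receptor of odorant receptors, had 1 count in male heads and 0 in the other 7 libraries. Est-6 had 2 counts in female and 6 in male eyes, against 4 in female and 2 in male heads. The markers a10 and Os-C had 3 and 2 counts in female eyes and 4 and 6 counts in male eyes, against 0 and 1 counts in female heads and 0 each in male heads. The part of antennal cells in the eye libraries was not tested.

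Obp49a and Obp19d represent the taste system. Obp49a is made by support cells of taste bristles, where it is needed for bitter compounds to suppress the response to sugar. It had 3.84 counts in female eyes and 10 in male eyes, 0 in female glands and 1.02 in male glands, and 18 in female heads and 20 in male heads, with 0 in both gonads. Its level was 26.7 CPM in female eyes (7.59 to 71.3) and 79.4 CPM in male eyes (38.1 to 146), against 135 CPM in female heads (79.8 to 213) and 148 CPM in male heads (90.2 to 228). The 2 heads were the highest libraries, although the intervals of male eyes and both heads overlapped. The other listed taste members, Obp19b, Obp57d and Obp57e, were at 0 in all 8 libraries.

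Obp19d, found in both antennal and taste organs, had 9.11 counts in eyes of females and 11.9 in eyes of males, and heads gave 4 counts for females and 4.28 for males, with 0 in both gland and both gonad libraries. Its level was 63.4 CPM in female eyes (28.6 to 119) and 94.6 CPM in male eyes (49.2 to 166), against 29.9 CPM in female heads (8.15 to 76.6) and 31.6 CPM in male heads (8.04 to 75.6). The eye and head intervals overlapped within each sex.

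Obp44a is known outside chemosensation, as a protein made by glia of the nervous system. It had 3 counts in female eyes and 19.5 in male eyes, 0 in female glands and 1 in male glands, 0 in female heads and 7.05 in male heads, and 0 in ovaries and 9.64 in testes. In each pair the male library was the higher one, at 155 CPM (90.8 to 236) in male eyes, 52 CPM (20.8 to 106) in male heads and 109 CPM (54.2 to 208) in testes. The counting intervals of the sexes overlapped in glands and heads. As a sum, glia markers were also higher in the male library of each somatic pair. They summed to 0.0162% of counts in female and 0.0499% in male eyes, to 0.0046% in female and 0.0188% in male glands, and to 0.0901% in female and 0.135% in male heads. The excess in glands and heads came nearly all from alrm. It had 3 female and 23 male counts in glands, and 92.3 and 162 in heads. Gs2 and Gat were lower in males in both pairs, Gs2 at 3 and 1 counts in glands and 21.2 and 17 in heads. All 7 glia markers were at 0 in ovaries and in testes. The part of glia in the Obp44a values was not tested. Obp44a overlaps Pabp2 on the opposite strand. Nothing in the sources used here says whether counting used strand, so reads of the pair may not have been separated.

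Obp99c had the most even distribution among the somatic libraries. Eyes gave 8 counts for females and 10 for males, glands 21 for females and 13 for males, and heads 16 for females and 12 for males, with 0 in both gonads. Its level was 55.7 to 138 CPM in these 6 libraries, and the intervals of all 6 overlapped, the lowest running to 110 CPM and the highest starting at 85.4 CPM. Obp99c overlaps Gycalpha99B on the opposite strand.

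Members known from seminal fluid were scattered and low. Of 7 listed genes (Obp8a, Obp22a, Obp51a, Obp56e, Obp56f, Obp56g and Obp56i), 3 were detected. Obp51a had 4 counts in testes, 45.2 CPM (12.3 to 116), and 0 elsewhere. Obp56f with 2 counts and Obp8a and Obp22a with 1 each brought the list to 8.2 counts in testes, against 0 in ovaries. The accessory gland makes most seminal fluid proteins, and 4 of its 9 markers in the table were detected in testes, at 55.3 counts in all, with Acp26Aa at 24.2 counts. The same markers were at 0 in ovaries. The part of accessory gland tissue in the testis values was not tested. Obp51a overlaps hbs on the opposite strand.

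The other seminal members were seen in eyes and heads. Obp56g, needed for formation of the mating plug, had 6.94 counts in eyes of females, 4 in eyes of males and 2 in heads of females, and 0 in the other 5 libraries, testes included. Obp56e had 7 counts in female heads, 52.3 CPM (21 to 108), and 0 in the other 7 libraries; it overlaps the antisense gene asRNA:CR44509. The remaining detected genes were Obp56a, with 4 counts in female eyes, 5 in female heads, 2 in male heads and 1 in testes, and Obp83ef, which encodes a protein with a doubled domain. Obp83ef had 1 count in female glands, 7 in male glands and 0 in the other 6 libraries, and it overlaps Obp83cd on the opposite strand.

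On the TPM scale the order of the family differed between the eye libraries. In male eyes Obp99b (1278 TPM) and Obp83a (588 TPM) led Obp44a (298 TPM), Obp28a (257 TPM), Obp99c (235 TPM) and Obp19d (209 TPM). In female eyes Obp99b (150 TPM), Obp56g (146 TPM), Obp28a (142 TPM), Obp99c (125 TPM) and Obp83a (98.7 TPM) lay close together, and their counts of 6.94 to 11 do not separate them. In heads the leading members were Obp99c (287 TPM) and Obp49a (201 TPM) in females, and Obp99b (397 TPM), Obp49a (256 TPM) and Obp99c (247 TPM) in males.

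Among genes with 10 or more rounded counts in either library of a pair, differences of 4-fold or more were counted as a description. Between female and male eyes, 8 Obp genes qualified. None was 4-fold higher in females and 4 were 4-fold lower, namely Obp44a (ratio 0.138, counting interval 0.0262 to 0.47), Obp99b (0.146, 0.0634 to 0.298), Obp56d (0.175, 0.0187 to 0.823) and Obp83a (0.214, 0.1 to 0.421). Over all 1283 genes that qualified, 19.5% were 4-fold higher and 13.9% were 4-fold lower in female eyes. The remaining Obp genes of the pair were Obp49a (0.351), Obp19d (0.658), Obp99c (0.701) and Obp28a (0.717), whose intervals all included 1. All 8 genes reached 10 counts in male eyes and only Obp83a did in female eyes, so 7 qualified through the library in which they were higher, and their shared direction is a description. Below 10 counts, Obp56g was at a ratio of 1.53 (0.39 to 7.15), Obp56a and Obp99a had 4 counts each in female eyes and 0 in male eyes, and Obp83b had 0 in female eyes and 3 in male eyes. Photoreceptor markers took 4.62% of female eyes against 17.3% of male eyes. Eggshell markers, mostly through Cp15, took 8.29% of female against 0.0241% of male eyes. The part of this difference in makeup in the Obp ratios was not tested.

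In salivary glands 2 Obp genes qualified, Obp99b with a female over male ratio of 1.21 (1.1 to 1.32) and Obp99c with 1.41 (0.675 to 3.07), and neither differed 4-fold. There, 3.74% of all genes were 4-fold higher and 7.57% 4-fold lower in females. In heads, 1 of 3 Obp genes was 4-fold lower in females, Obp99b at a ratio of 0.107 (0.012 to 0.442), while Obp49a was at 0.912 (0.455 to 1.82) and Obp99c at 1.35 (0.6 to 3.13). Among all genes in heads, 6.07% were 4-fold higher and 6.51% 4-fold lower in females. In gonads, Obp44a alone qualified, through its 9.64 testis counts, which round to 10. With 3 counts in place of its 0 in ovaries, its level there was 0.176 times that in testes. In this pair 24.8% of all genes were 4-fold higher and 33.9% 4-fold lower in ovaries. For Obp99b, the female library was thus the lower one of the pair in eyes and heads, and the higher one in glands.

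**Figure D4:**
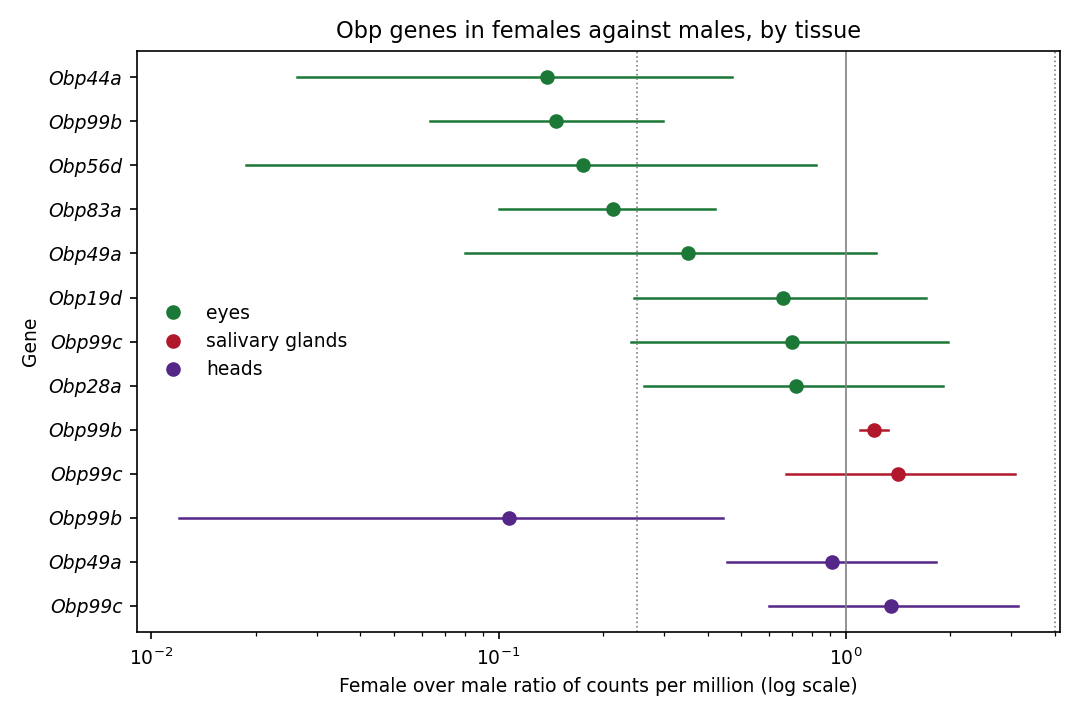
Female over male ratios of CPM (log scale) for Obp genes at 10 or more counts in either library, by tissue, with exact 95% counting intervals; the solid line marks 1 and the dotted lines 4-fold in either direction. The 8 ratios in eyes lie below 1, for genes of which 7 reached 10 counts in male eyes alone, and Obp99b lies below 0.25 in eyes and heads but at 1.21 in glands.

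Sex was tested over the 6 somatic libraries with edgeR's quasi-likelihood test, fitted as tissue plus sex on 1316 genes. In this fit the error is how far the tissues depart from 1 sex difference common to them. Obp83a, Obp99b, Obp99c and Obp49a passed the count filter, mostly through the libraries in which they were high. None of the 4 was called between the sexes, and 0 of 1316 genes (0%) were called at an adjusted p of 0.05. At an unadjusted p of 0.05 the same test counted 34 genes, none of them an Obp gene, and DESeq2 called 2 genes, also no Obp gene. Obp99b had a female minus male log2 difference of -1.68 ± 0.83 (SE; edgeR adjusted p = 0.961). Its mean level ran the other way, because the gland libraries dominate a mean of CPM. It was 3492 CPM in females and 3042 CPM in males on the scaled totals of the fit, not on library totals. Without female salivary glands the log2 difference was -2.86 with an edgeR adjusted p of 0.0481, and over all alternatives the adjusted p lay between 0.0481 and 1. Obp83a was at -2 ± 1.07, Obp49a at -0.85 ± 0.82 and Obp99c at 0.2 ± 0.58 (edgeR adjusted p = 0.961, 0.961 and 0.989).

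Eyes were compared with heads within each sex and in the same fit. In females, Obp49a was 4-fold lower in eyes (ratio 0.207, 0.0509 to 0.628), and Obp83a was 3.41-fold higher over the 3-count limit in heads. Among all genes of this pair, 15.2% were 4-fold higher and 20.8% 4-fold lower in eyes, and of the 3 Obp genes that qualified, 0 were higher and 1 was lower. Each of the 3 reached 10 counts in 1 library of the pair only, the one in which it was higher. In males, 1 of 8 Obp genes was 4-fold higher and 0 were lower, with 3 counts in place of a 0. On that setting Obp83a was 16.1-fold higher in male eyes, where 5.55% of all genes were 4-fold higher and 19.8% 4-fold lower. Obp28a was 3.94-fold higher, with 0 counts in male heads. Below 4-fold were Obp19d at a ratio of 3.23 (0.978 to 13.7), Obp99b at 3.06 (1.78 to 5.46), Obp44a at 2.92 (1.18 to 8.22), Obp56d at 1.34 (0.478 to 3.92), Obp99c at 0.896 (0.347 to 2.26) and Obp49a at 0.538 (0.225 to 1.2). All 8 had 10 or more counts in male eyes, and only 3 of them did in male heads, so these ratios describe genes that qualified mainly through male eyes.

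Across both sexes, edgeR called 0 of 1316 genes (0%) between eyes and heads, with 175 at an unadjusted p of 0.05, of which 1 was an Obp gene, and DESeq2 called 32, none of them Obp. Obp83a had an unadjusted edgeR p of 0.00311 and an adjusted p of 0.24. It passed the count filter only through the eye libraries, in which it was high, so these p-values are given as a description. Its call depended on the setting. The edgeR adjusted p of Obp83a was 0.00321 with a lower count filter, 0.000374 without female eyes, 0.000274 without female glands and 0.000491 without male glands. In the other alternatives, DESeq2 included, its adjusted p was 0.217 to 0.475. Obp99b was at an eyes minus heads log2 difference of 2.06 ± 0.96 (edgeR adjusted p = 0.405; 0.0252 without female eyes), Obp49a at -1.12 ± 0.88 (0.568) and Obp99c at -0.18 ± 0.71 (0.927). Scaling by library totals in place of TMM (trimmed mean of M values) moved all genes by -0.39 in this comparison, on the log2 scale, and changed no Obp call.

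Salivary glands against heads gave the only called Obp genes. Obp99b was higher in glands by 7.92 ± 1.2 on the log2 scale (edgeR adjusted p = 0.0144). Its means were 9463 CPM in glands and 64.4 CPM in heads on the TMM-scaled totals of the fit, not on library totals. Obp49a was lower in glands by a log2 difference of -4.48 ± 1.22 (edgeR adjusted p = 0.0394), with 1 count in the gland libraries against 38 in the head libraries. It passed the count filter only through libraries in which it was high, both heads among them, so its p-value is given as a description. Obp99b and Obp49a were 2 of 4 Obp genes tested, in a comparison in which 354 of 1316 genes (26.9%) were called, 179 higher and 175 lower in glands. Scaling by library totals moved all genes by -0.72 and gave 105 higher and 270 lower, with both Obp calls kept. The Obp49a call was lost without female glands, male glands or female heads. Obp99b was higher in glands in every alternative, by log2 differences of 5.82 to 9.52. Fits without 1 library keep only 1 residual degree of freedom, so passing or failing there is a description. Obp99c was at 0.86 ± 0.69 (edgeR adjusted p = 0.368), and Obp83a was at 0 in glands and heads and gave no result.

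Within each sex the direction was the same. In females the gland over head ratio of Obp99b was 513 (142 to 4240, resting on 2 head counts). Obp49a, at 0 in female glands, was at 0.146 times its head level with 3 counts in place of the 0. Of 3 Obp genes that qualified, 1 was 4-fold higher and 1 lower, against 16.3% and 32.9% of all genes. In males the ratio of Obp99b was 45.4 (28.9 to 75.7) and that of Obp49a was 0.0509 (0.00123 to 0.318), again 1 higher and 1 lower of 3, against 18.7% and 31.7% of all genes. Obp99c was close to even in both, at 1.15 (0.573 to 2.36) in females and 1.1 (0.464 to 2.65) in males.

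Transcripts of the same Obp gene were split differently between libraries, by the authors' estimate. Obp99b has 2 transcripts with the same coding region of 149 residues. FBtr0085462, with a single exon, took 76.2% of Obp99b counts in female glands (73.8% to 78.6%) and 77.3% in male glands (74.5% to 80.1%), and the spliced FBtr0333198 took the rest. The single-exon form took 84.3% in male eyes (71.3% to 91%) and 84.8% in male heads (62.4% to 94.5%), so these intervals overlapped those of the glands. Obp83a has 3 transcripts, and its eye counts went to different ones in the sexes. All 11 counts of female eyes were assigned to FBtr0345251, which encodes 174 residues, while in male eyes 38.1 counts went to FBtr0078656 and 7.06 to FBtr0345250, both encoding 154 residues, and 0 to FBtr0345251.

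Obp19d and Obp56d showed a like split. For Obp19d, FBtr0077303 took all counts in female eyes (9.11) and female heads (4), whereas FBtr0077304 took 8.59 of 11.9 counts in male eyes and all 4.28 in male heads. For Obp56d, FBtr0086477 took 2 counts in female eyes and 5.54 in female heads, with 1.68 to FBtr0345676 there, and FBtr0345676 took all 10 counts in male eyes and all 8 in male heads. Within each of these 2 genes the transcripts encode proteins of the same length (150 residues for Obp19d and 131 for Obp56d). The transcripts of a gene share exons, so these splits rest on the deposited assignment of few reads and were not tested between sexes.

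The family spans 5 chromosome arms (Ensembl annotation of BDGP6). On 2R, 7 of 29 genes were detected, on 3R 6 of 12, on 2L 1 of 2, on X 1 of 6 and on 3L 0 of 2. Genes less than 10000 bases apart form 9 clusters with 31 genes, of which 8 were detected. No share of detected genes over all genes was taken for arms or clusters, so these counts are a description. Obp83a (3R:5972155-5975245, minus strand) and Obp83b (3R:5976177-5976817, minus strand) lie 932 bases apart and were both detected, and both in eyes alone. Obp99b (3R:29716254-29716896, minus strand) lies 1250 bases from Obp99d, which was at 0 in all 8 libraries. Of the 6 genes between Obp56a and Obp56f, 3 were detected, and none of the 5 genes between Obp50a and Obp50e was.

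By their longest coding region, the 51 proteins have 117 to 259 residues, with a median of 151. The median was 143 for the 15 detected genes and 171 for the 36 others. Among the genes at 10 counts or more in any library, Obp49a was the longest with 212 residues and Obp56d the shortest with 131. Of the 51 genes, 16 overlap another gene, and 5 of these were detected.

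The 14 genes above 0 but below 3 counts were Obp8a, Obp18a, Obp19a, Obp22a, Obp50a, Obp56f, Obp56h, Obp57a, Obp57b, Obp57c, Obp59a, Obp83cd, Obp84a and Obp85a. The 22 genes at 0 were Obp19b, Obp19c, Obp46a, Obp47a, Obp47b, Obp50b, Obp50c, Obp50d, Obp50e, Obp56b, Obp56c, Obp56i, Obp57d, Obp57e, Obp58b, Obp58c, Obp58d, Obp69a, Obp73a, Obp83g, Obp93a and Obp99d. They include Obp69a, an antennal protein, and Obp57d and Obp57e, which act in taste bristles of the leg. A count of 0 allows a share of up to 0.00197% (female glands) to 0.00339% (testes) of a library, so low levels of these genes were not detectable at this depth.

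Other chemosensory genes were counted by the same rule in the same libraries. No share of all genes at 3 or more counts was taken over the 8 libraries, so these numbers are a description. Of 186 odorant, gustatory and ionotropic receptor genes (Orco, Or, Gr and Ir), 2 were detected, Gr32a and Or67a, with 3 counts each in testes. Of 4 odour degradation and uptake genes, 3 were detected, namely Est-6, Jhedup and Snmp1. The highest value was that of Est-6, with 20.1 counts in testes. Jhedup, an esterase gene, had 4 counts in female eyes, 11.2 in male eyes, 1 in each head library and 0 elsewhere. Of 24 other soluble chemosensory proteins 4 were detected, namely a10, Os-C, Phk-3 and CheB42c. CheB42c, at 26.9 to 1725 counts, overlaps mim on the same strand and other genes, so its counts are uncertain. Of the 8 genes of the NPC2 family, which bind sterols and related lipids, 4 were detected, led by Npc2h with 74.1 (ovaries) to 1817 (male heads) counts.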

How the data were processed

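Each of the 8 groups (tissue and sex, from the labels) has 1 library. The authors deposited estimated counts, which need not be whole, and length-corrected TPM for 31089 transcripts, and a table of whole-number read counts per library. Minimap2, Salmon, edgeR and the build BDGP6 are named, without roles, per the submitters' processing notes; the read filter and strand use are not given in the sources used here. Libraries held 262332 to 334257 reads, of which 90780 to 156627 passed the authors' filter, and the numbers of counts limit the precision given.

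Transcript IDs were matched to Ensembl release 115 (31048 of 31089; the other 41 held 0.0938% to 0.535% of a library's counts and stayed out). Counts were summed over genes, and CPM (counts per 1000000) use library totals that include the enriched qtc reads. Means given with the fit instead use the TMM-scaled totals of the genes tested. Poisson, Wilson and binomial intervals are at 95%. A level or ratio against 0 uses 3 counts per library. Such a ratio takes the other count as exact, so it is not a 95% bound. A fit of the 6 somatic libraries used edgeR 4.0.16 under R 4.3.3 (rounded gene sums, TMM, filterByExpr minimum count 10, robust quasi-likelihood F test, tissue plus sex, 2 residual degrees of freedom, Benjamini-Hochberg over all genes tested, threshold 0.05), tested on simulated data. The labels name no separate animals or cultures, and the spread behind each p-value is that between tissues and sexes. DESeq2 1.42.0, library totals, a lower filter and leaving out each library were alternatives. Each fit without 1 library had 1 residual degree of freedom.

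All Obp genes at 3 or more counts in any library are named, and those at 10 or more are given in every library. Members of other lists at 10 or more counts could be named, and others that are named were chosen after their values were seen. The lists cover antennal, seminal fluid and taste Obp genes, chemoreceptors, other soluble chemosensory proteins, odour degradation and uptake, and the NPC2 family. They also cover markers of olfactory neurons, antennal support cells, photoreceptors, fat body, glia, neurons, salivary gland, gut, male accessory gland, eggshell, spermatogenesis, hemocytes and muscle. The members and the lists were chosen with earlier results of these data known.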

Additional observations from a re-analysis of the deposited data

Results flagged for a closer look

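The female over male ratio of Obp99b ran in opposite directions in different tissues. It was 0.146 in eyes (9.47 counts in females and 53.7 in males), 1.21 in salivary glands (1168 counts in females and 846 in males) and 0.107 in heads (1.98 counts in females and 19.1 in males). The counting intervals of eyes and heads lay below 1 and that of glands above 1. With 1 library per tissue and sex, the difference between tissues was not tested.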

How the results depend on the processing

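Results rest on single libraries, few counts and the authors' assignment of reads, and depth limits most members to a detected or undetected call. Without rRNA-named genes and qtc in the total, the Obp share was 0.0667% of female eyes, 0.194% of male eyes, 0.856% of female glands and 0.714% of male glands. As a share of TPM it was 0.0973%, 0.346%, 1.69% and 1.43% in these 4 libraries, 0.0991% in female heads, 0.128% in male heads and 0.0747% in testes. At a minimum of 1 count, 16 Obp genes were detected in male eyes, 4 in female glands, 8 in male glands, 10 in female heads, 11 in male heads, 2 in ovaries and 11 in testes. At a minimum of 10 counts, 1 was detected in female eyes, 2 in female heads, 3 in male heads and 0 in testes. Leaving out single libraries, an alternative chosen after seeing the data for this count, gave 14 to 15 detected genes, and leaving out both eye libraries gave 10. The number of Obp genes called by edgeR lay between 0 and 1 for sex, 0 and 2 for eyes against heads, and 1 and 2 for glands against heads when 1 library was left out. The lower count filter called 1 Obp gene between eyes and heads. Library totals and DESeq2 gave the same Obp calls as the fit reported, and rounding gene sums moved no share beyond its interval. Where a library was left out, the lone library of its tissue is assumed to vary like the others. No paired analysis was possible because the labels give no replicate numbers; the fit reported already compares the sexes within tissues and the tissues within sexes.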
